A study of Mus musculus with 2 samples.

Results

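Of 7 genes for digestive and extracellular lipases and a cofactor followed in the mouse dorsolateral prostate, 1, the pancreatic lipase-related gene Pnliprp1, was well above background in both pools on both arrays. Over all 18952 genes with a named probe on the array, 6052 were above background in this way. The 7 genes, also among the 18952, were Pnliprp1, Pnliprp2, Pnlip, Clps, Cel, Lipf and Lipg. Members were all probes whose RefSeq accession belonged to one of these genes, which gave 1 probe and 1 spot per gene. Pnliprp1 was chosen by its higher ratio in the transgenic pool, so its ratio is a description here and not a test. Total RNA came from dorsolateral prostates of FVB/N mice aged 6 months, in a pool of 6 ARR2PB-miR32 transgenic animals and a pool of 6 wild-type animals. The ARR2PB promoter, built from probasin gene elements, is androgen-responsive and drives the microRNA miR-32 in prostate epithelial cells. Both pools were hybridised together on 2 two-colour arrays of 1 slide, with the transgenic pool in Cy3 on array 1 and in Cy5 on array 2. With 1 pool per genotype no test of genotype was possible: each ± is the SD over the 2 arrays, which repeat the same RNA, unless the scanner's error model is named. In bulk tissue, fewer cells of a type and less RNA per cell cannot be told apart.

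The pancreatic triglyceride lipase Pnlip hydrolyses dietary triglyceride in the gut lumen, where its cofactor colipase, encoded by Clps, anchors it to lipid droplets coated with bile salts. Pnliprp2 is a relative with a broad range of substrates that includes phospholipids and galactolipids, whereas Pnliprp1 has little known activity on triglyceride. Cel is the bile salt-stimulated carboxyl ester lipase of pancreatic juice and milk. Lipf is the acid-stable gastric lipase, and Lipg, the endothelial lipase, acts mainly on phospholipids of high-density lipoprotein. These enzymes are best known from pancreas, stomach and vascular endothelium rather than from prostate.

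The transgene encodes miR-32, and the mature 5p strand of the mouse gene is shown because this microRNA distinguishes the pools (RefSeq, GRCm38.p6, chr4:56895272-56895293, minus strand). Capitals mark the seed, bases 2 to 8, which 6 mature mouse microRNAs in the RefSeq table share.
mmu-miR-32-5p: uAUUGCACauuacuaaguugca

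Pnlip, Pnliprp1 and Pnliprp2 follow each other on chromosome 19, with no other protein-coding gene between them in the RefSeq annotation. Their promoter windows, 250 bases before to 50 bases after the annotated start, are shown because Pnliprp1 was detected on the arrays and its neighbouring paralogs were not. The sequences are RefSeq's for GRCm38.p6, the reference strain and not FVB/N. Capitals mark matches on either strand to 6 short motifs. The letters AGAACA are the core of an androgen receptor binding site, and a full androgen response element holds this core, a spacer of 3 bases and the reverse complement of the core. The site of the pancreatic acinar factor PTF1 has a TC box, searched as TTTCCCA. It also has an E box, which was searched as CACCTG. A forkhead factor site was searched as TGTTTAC. The last motif was the TATA box, searched as TATAAA.
Pnliprp1, chr19:58728637-58728936, plus strand: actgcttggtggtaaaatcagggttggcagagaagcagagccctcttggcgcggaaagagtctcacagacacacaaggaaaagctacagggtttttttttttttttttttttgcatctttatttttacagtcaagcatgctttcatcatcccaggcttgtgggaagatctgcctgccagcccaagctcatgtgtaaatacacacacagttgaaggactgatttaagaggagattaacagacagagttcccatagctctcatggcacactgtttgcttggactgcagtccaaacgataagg
Pnlip, chr19:58670115-58670414, plus strand: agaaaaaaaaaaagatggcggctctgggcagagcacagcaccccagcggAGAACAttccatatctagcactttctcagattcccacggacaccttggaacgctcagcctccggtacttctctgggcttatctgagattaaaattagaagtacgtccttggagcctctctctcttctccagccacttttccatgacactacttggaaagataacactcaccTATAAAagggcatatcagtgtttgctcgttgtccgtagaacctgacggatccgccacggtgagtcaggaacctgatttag
Pnliprp2, chr19:58759473-58759772, plus strand: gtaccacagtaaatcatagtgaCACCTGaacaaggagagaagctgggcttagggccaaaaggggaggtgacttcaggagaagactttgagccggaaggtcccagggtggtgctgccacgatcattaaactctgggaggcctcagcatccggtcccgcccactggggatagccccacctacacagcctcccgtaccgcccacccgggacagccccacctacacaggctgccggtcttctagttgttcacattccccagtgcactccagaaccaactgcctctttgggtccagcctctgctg

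The Pnliprp1 window held none of the 6 motifs. The Pnlip window held TATAAA, starting at −30 from the annotated start, and AGAACA, starting at −201, and the Pnliprp2 window held 1 CACCTG. The Cel window, on chromosome 2, held 4 matches to CACCTG and 1 to TTTCCCA, and the Lipf window held none. Among 32544 promoters of the same length, 18.9% held AGAACA, 20.3% CACCTG, 13.6% TATAAA, 8.03% TTTCCCA, 3.66% TGTTTAC and 0.00922% the full androgen response element. A window for 5 of the 7 members was in the table. These matches describe the letters of the windows and say nothing about binding.

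A gene counted as detected when, on each of the 2 arrays, its probe was well above background for 1 pool or more, and the same pool on both. By this rule all 10 luminal epithelial markers of the prostate were detected, as were 8 of 10 prostate secretory genes, among them Pbsn, the probasin gene. Background rested on the scanner software's flag for each spot and dye. The transgenic pool was well above background on 58.3% and 21.1% of spots of arrays 1 and 2, against 42.1% and 57% for the wild-type pool. The transgenic pool in Cy5 on array 2 was thus the weakest of the 4 channels. Of the 18952 genes with a named probe, 10435 passed the detection rule, which is the background for the detection counts of the gene lists. The rule was met in the wild-type pool by 10425 genes and in the transgenic pool by 6062, so detection rested mostly on the wild-type pool. A gene was called when both arrays gave a difference of 1.5-fold or more with one sign (the size rule). In the transgenic pool, 95 detected genes (0.91%) were called higher and 136 (1.3%) lower, and 25 (0.24%) were higher at 2-fold. Of the 6052 genes above background in both pools on both arrays, 1.52% were higher. This split moved with the scaling, to 2 against 554 with median centring, 247 against 627 by the scanner's ratios, 178 against 119 in the authors' deposited value table, and 94 against 76 among probes well above background in both pools.

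Of the 7 members, 3 were detected (Pnliprp1, Clps and Cel) and 4 were not (Pnliprp2, Pnlip, Lipf and Lipg), beside 10435 detected of 18952 named genes. Among the 3 detected members 1 was higher, 0 were lower and 2 were neither, where the higher member, set beside 0.91% of all detected genes, is the one that had been picked for this ratio. Their median log2 ratio of transgenic over wild type was 0.24, against −0.06 for all detected genes. Pnliprp1 alone of the 7 was well above background in both pools on both arrays, beside 6052 of the 18952 named genes.

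**Figure D1:**
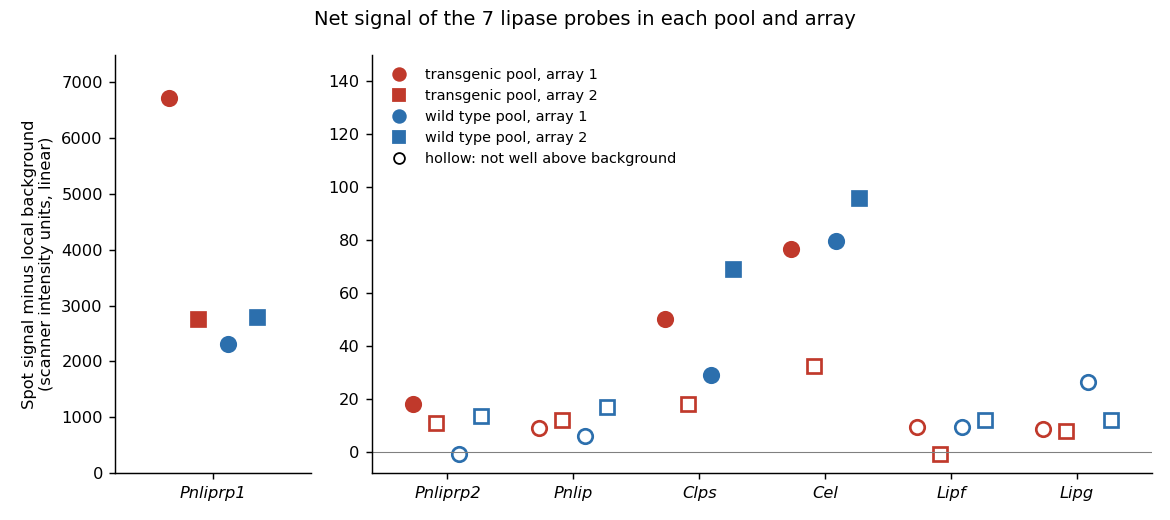
Net signal of each member's probe, as spot signal minus local background in linear scanner units, in the transgenic and wild-type pools on arrays 1 (circles) and 2 (squares), with Pnliprp1 on its own scale. Filled symbols were well above background: all 4 for Pnliprp1, 3 of 4 for Clps and Cel, 1 of 4 for Pnliprp2 and none for Pnlip, Lipf and Lipg.

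Pnliprp1 (probe for NM_018874) had a net signal of 6720.5 and 2754.5 units in the transgenic pool on arrays 1 and 2, against 2315 and 2803.5 units in the wild-type pool. In these raw units the pools overlapped, because the transgenic value of array 2 lay just below the wild-type value read on the same array in the other dye. The dyes were unequal there: the scanner software multiplied Cy5 by 12.7 and Cy3 by 2.39 on array 2, against 3.82 and 4.73 on array 1. After background correction and loess normalization, the log2 level was 12.91 and 12.62 in the transgenic pool and 11.03 and 10.33 in the wild-type pool. On this scale the transgenic levels lay above the wild-type levels on both arrays, in a gene picked for its higher ratio.

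The log2 ratio of Pnliprp1 was 1.89 on array 1 and 2.30 on array 2, or 3.69-fold and 4.92-fold, with a mean of 2.09 ± 0.29. The scanner software's own log ratios, turned to the same direction, were 2.08 and 2.18, with errors of 0.28 and 0.29 from its error model. Spots printed repeatedly give another view of the technical error. For probes printed 10 times with a brightness within 1 log2 unit of Pnliprp1, the median SD of the log2 ratio among spots was 0.26 on array 1 (10 probes) and 0.72 on array 2 (9 probes). These SDs describe technical noise within an array and not the spread between animals. Because the gene has a single spot per array, the probe itself has no repeat within an array.

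The size on array 2 rested on the dye normalization. Before loess, and turned to transgenic over wild type, the log2 ratio was 1.51 on array 1 and −0.03 on array 2, so the loess curve added 0.38 and 2.32. With net signals and no dye normalization at all, an alternative added after the data were seen, the ratios of 1.54 and −0.03 averaged 0.76 ± 1.11. The median of all detected genes stood at −0.35 and −2.49 under the same treatment, so Pnliprp1 lay 1.89 and 2.46 above it. Its distance above the median gene was 1.91 and 2.38 after loess. With median centring in place of loess, the ratios were 1.82 and 0.40 (mean 1.11), and the size rule was no longer met. The medians of all detected genes were −0.05 and −1.09 on arrays 1 and 2 in that setting, and −0.57 for the mean. Pnliprp1 lay 1.87 and 1.49 above the medians of the 2 arrays.

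Pnliprp1 was picked for its higher ratio, so a high rank by ratio was given in advance and is a description only. Among the 6052 genes well above background in both pools on both arrays, it was number 8 by ratio on array 1 and number 5 on array 2. By the mean it was number 3 after loess, number 3 with median centring and number 6, among 6056 genes, with no dye normalization. With the scanner software's log ratios it was number 9 by the mean, number 5 on array 1 and number 171 on array 2. In the authors' deposited table, Pnliprp1 stood at 2.08 and 2.15, and it was the only member in that table. Among 6127 genes there it was number 10 by the mean, number 5 on array 1 and number 177 on array 2.

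**Figure D2:**
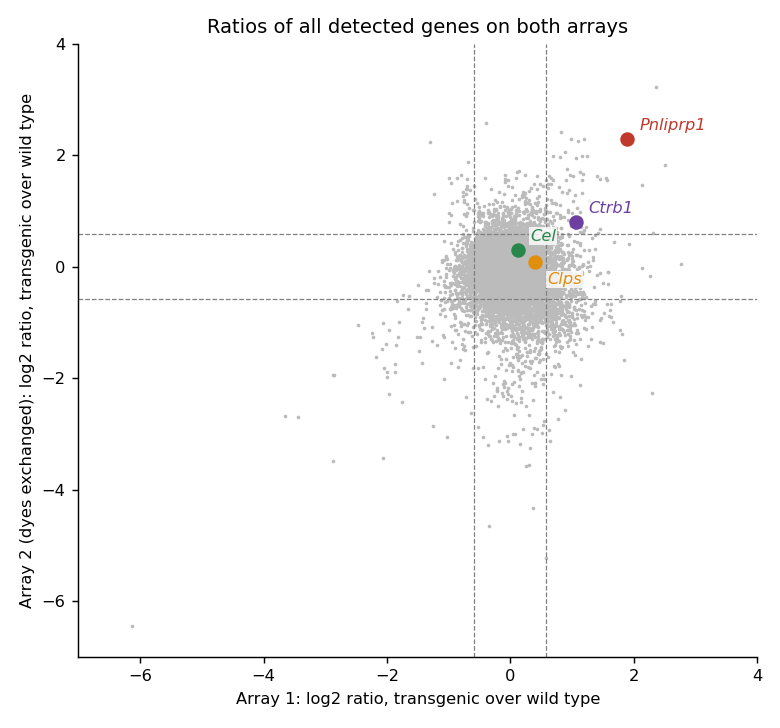
Log2 ratio of transgenic over wild type on array 1 (horizontal) and on array 2 with exchanged dyes (vertical) for the 10435 detected genes, with dashed lines at 1.5-fold. Pnliprp1 at 1.89 and 2.30 and Ctrb1 at 1.06 and 0.80 lie beyond the lines at the upper right, and Clps and Cel lie between the lines.

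Colipase, the cofactor gene Clps (NM_025469), gave weak signals. Its net signal was 50 and 18 units in the transgenic pool on arrays 1 and 2, against 29 and 69 units in the wild-type pool. The transgenic pool was well above background on array 1 only, and the wild-type pool on both. The normalized log2 levels were 6.84 and 6.81 in the transgenic pool and 6.44 and 6.73 in the wild-type pool. The gap between the pools was small, with ratios of 0.39 and 0.08 and a mean of 0.24 ± 0.22. Repeat spots of like brightness had median SDs of 0.15 and 0.20. The ratio of array 2 was smaller than this technical spread, and Clps did not meet the size rule. It met the rule by the ratios of the scanner software, 0.59 ± 0.31 on array 1 and 0.85 ± 0.49 on array 2 (errors from the scanner's error model), where 2.37% of all detected genes were called higher.

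The carboxyl ester lipase gene Cel (NM_009885) was detected on the same terms. Its net signal was 76.5 and 32.5 units in the transgenic pool, the second value not well above background, against 79.5 and 96 units in the wild-type pool. The normalized levels were 7.17 and 7.16 in the transgenic pool and 7.05 and 6.85 in the wild-type pool. The log2 ratio was 0.12 on array 1 and 0.31 on array 2, with a mean of 0.21 ± 0.14. Repeat spots of like brightness had median SDs of 0.17 and 0.20, so the ratio lay below this spread on array 1 and above it on array 2. The scanner software's log ratios were 0.24 and 0.32 with errors of 0.24 and 0.45. With median centring the sign of the mean turned, to −0.09.

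Pnlip, Pnliprp2, Lipf and Lipg were not detected, which bounds their signal at background and does not show that they were absent. Pnliprp2 (NM_011128) came closest, with 18 and 11 net units in the transgenic pool, of which only the first was well above background, against −1 and 13.5 units in the wild-type pool. The scanner software's log2 ratios for it were 1.51 ± 0.92 and 1.77 ± 1.56 on arrays 1 and 2 (errors from the scanner's error model), and after normexp and loess they were 0.40 and 0.09. It is the member just outside the detection rule, and no fold change is drawn from these values. Pnlip (NM_026925) had 9 and 12 net units in the transgenic pool against 6 and 17 units in the wild-type pool, with no spot well above background. The canonical triglyceride lipase of the family thus stayed at background in both pools. Whether the Pnliprp1 probe also binds transcripts of its paralogs was not tested.

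Lipf (NM_026334) had 9.5 and −1 net units in the transgenic pool against 9.5 and 12 units in the wild-type pool. Lipg (NM_010720) had 8.5 and 8 units in the transgenic pool against 26.5 and 12 units in the wild-type pool. Neither gene was well above background in any channel. Of 11 endothelial markers, 9 were detected in the same RNA, none met the size rule and their median log2 ratio was −0.05. Among all named genes, 10435 of 18952 were detected. Of those detected, 2.21% met the size rule, and the median was −0.06. Of 10 gastric gland markers on the array, 1 was detected (Muc5ac, a mucin, at −0.06 ± 0.43), and the pepsinogen gene Pgc was not.

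**Figure D3:**
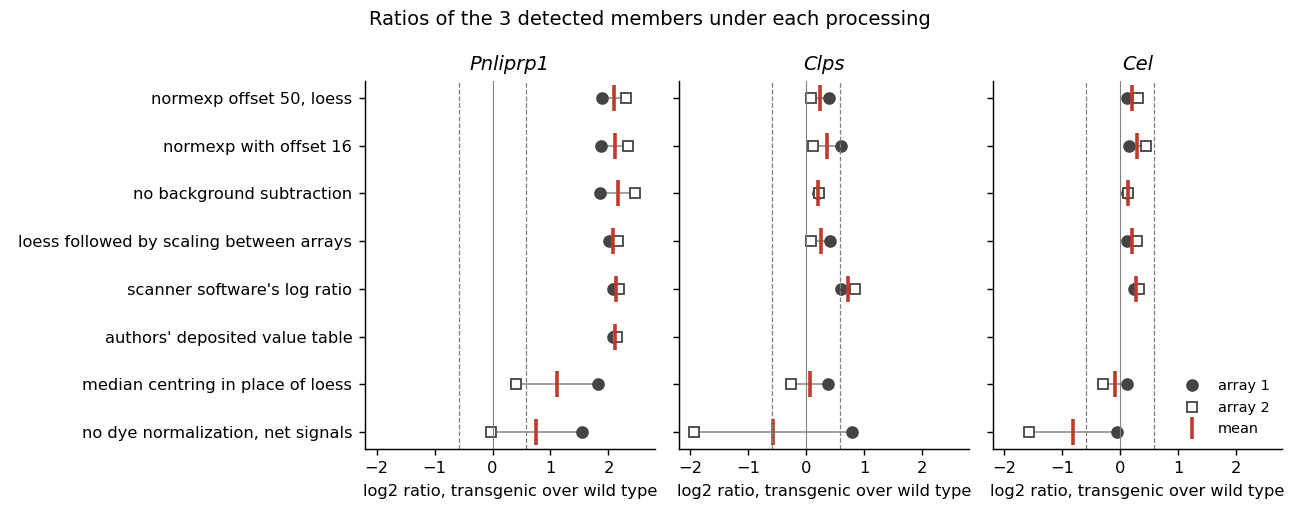
Log2 ratio of transgenic over wild type for Pnliprp1, Clps and Cel on array 1 (filled circles), on array 2 (open squares) and as their mean (red bars) under 8 ways of processing, with dashed lines at 1.5-fold. Pnliprp1 stays beyond 1.5-fold on array 1 throughout and falls to 0.40 and −0.03 on array 2 with median centring and with no dye normalization; Clps and Cel are not in the authors' deposited table.

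Pancreatic acinar cells, the main source of the pancreatic lipases elsewhere in the body, were sought through their other products. Of 22 acinar markers on the array, lipases left out, 3 were detected: Ctrb1, Bhlha15 and Prss3. Among all named genes, 10435 of 18952 were detected. The 19 other acinar markers, among them the carboxypeptidase genes Cpa1 and Cpb1, the elastase gene Cela1, the amylase gene Amy2a5 and the acinar transcription factors Ptf1a and Rbpjl, were not detected. Counting any probe, acinar markers were well above background for 6 and 2 genes in the transgenic pool on arrays 1 and 2, against 3 and 8 genes in the wild-type pool. The shares over all spots were 58.3% and 21.1%, against 42.1% and 57%. None of 6 islet markers on the array was detected.

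Ctrb1, which encodes the digestive protease chymotrypsinogen B, was the acinar marker that met the size rule. Its net signal was 1167 and 207.5 units in the transgenic pool, against 677 and 541.5 units in the wild-type pool, well above background in all 4 channels. The normalized log2 levels were 10.43 and 9.08 in the transgenic pool and 9.37 and 8.28 in the wild-type pool, so the pools overlapped across arrays. The log2 ratio was 1.06 on array 1 and 0.80 on array 2 (0.93 ± 0.19, 1.90-fold). Like Pnliprp1, Ctrb1 did not meet the rule with median centring, and with no dye normalization its mean was −0.30, where the median of all genes was −1.44. Bhlha15, a transcription factor of secretory cells also known as Mist1, was well above background in all channels at 0.01 ± 0.43, and Prss3, a trypsinogen gene, was at −0.01 ± 0.21.

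Cel is also a milk lipase, and 1 of 6 milk genes was detected, beside 10435 detected of 18952 named genes. Counting any probe, milk genes were well above background for 2 and 1 genes in the transgenic pool on arrays 1 and 2. In the wild-type pool the counts were 1 and 3 genes. Lalba, the alpha-lactalbumin gene, had 1892.5 and 198 net units in the transgenic pool against 860 and 613 units in the wild-type pool. It met the size rule at 1.42 on array 1 and 0.60 on array 2 (1.01 ± 0.58), where 0.91% of all detected genes were called higher. Its call was lost with median centring, after scaling the arrays to each other, when no background was subtracted, and at 2-fold. The casein genes Csn2 and Csn3 and the whey protein gene Wap were not detected.

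Among other genes of lipid hydrolysis and uptake, 2 met the size rule, both lower. Of 79 listed genes in 7 lists, 72 were on the array and 36 were detected, of which 0 were higher and 2 lower, or 5.56% against 2.21% called in either direction among all detected genes. The median log2 ratio of the 36 genes was −0.10, against −0.06 for all detected genes. The share of all detected genes called higher was 0.91%, so a count of 0 among 36 genes is near the background.

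Among the other members of the pancreatic lipase gene family, Lpl, the lipoprotein lipase gene, had 210 and 85 net units in the transgenic pool against 786 and 667.5 units in the wild-type pool. Its log2 ratio was −1.36 on array 1 and −0.41 on array 2 (−0.89 ± 0.68), beyond 1.5-fold on array 1 only, and its second detected probe was at 0.08 and −0.39. Liph, a phosphatidic acid-selective phospholipase gene, was at −0.17 ± 0.03, Pla1a, a phosphatidylserine-specific phospholipase gene, at −0.17 ± 0.34, and the hepatic lipase gene Lipc was not detected. The size rule was met by 2.21% of all detected genes and by none of 6 detected cofactors. They ranged from −0.15 ± 0.29 for Lmf2 to 0.48 ± 0.44 for Apoc2, the activator of lipoprotein lipase, with Gpihbp1, its endothelial anchor, at −0.01 ± 0.0032. Angptl4, an inhibitor of lipoprotein lipase, had opposite signs on the arrays, −0.33 and 0.69. The lysosomal acid lipase gene Lipa, the only detected relative of Lipf, was at −0.05 ± 0.23.

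Of 13 detected genes of intracellular lipases and their regulators, 2 were lower, 11 were neither and the median was −0.08. Among all detected genes, 1.3% were called lower. Hilpda, an inhibitor of adipose triglyceride lipase, had 234.5 and 77.5 net units in the transgenic pool against 672.5 and 744 units in the wild-type pool, a log2 ratio of −0.82 ± 0.30. Its second detected probe was at −0.49 and −1.35, and the call was lost both when no background was subtracted and after scaling the arrays to each other. Abhd12, a lysophospholipid hydrolase gene, was at −0.76 ± 0.12, and its sign on array 2 was positive in the scanner software's ratios (0.90) and the authors' deposited table (0.87). Pnpla2, the adipose triglyceride lipase gene, was at −0.08 ± 0.40, the hormone-sensitive lipase gene Lipe at −0.27 ± 0.16, and the monoglyceride lipase gene Mgll at 0.38 ± 0.14 (its second detected probe was at −0.23).

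Of all detected genes, 2.21% met the size rule. None of 4 carboxylesterase genes, 3 secreted phospholipase A2 genes and 6 genes of lipid uptake and re-esterification met it, with medians of 0.03, −0.01 and −0.20. The ends of these lists were Ces2g at 0.29 ± 0.09 and Scarb1, a lipoprotein receptor gene, at −0.57 ± 0.42. Pla2g12a had opposite signs on the arrays, 1.03 and −1.31. The pancreatic phospholipase gene Pla2g1b was not detected. Adipocyte markers were lower in the same RNA: 7 of 10 detected met the rule, against 1.3% of all detected genes called lower. Their median was −1.47, against −0.06 for all detected genes. Fabp4, a fatty acid carrier, was at −2.13 ± 0.22 and Adipoq, the adiponectin gene, at −1.81 ± 0.08. In the transgenic pool 10 and 3 adipocyte markers were well above background on arrays 1 and 2, against 10 and 10 in the wild-type pool. Over all spots these shares were 58.3% and 21.1%, against 42.1% and 57%. Lep was not detected. The part of adipocytes in the values of Lpl, Hilpda and Lipe was not tested.

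**Figure D4:**
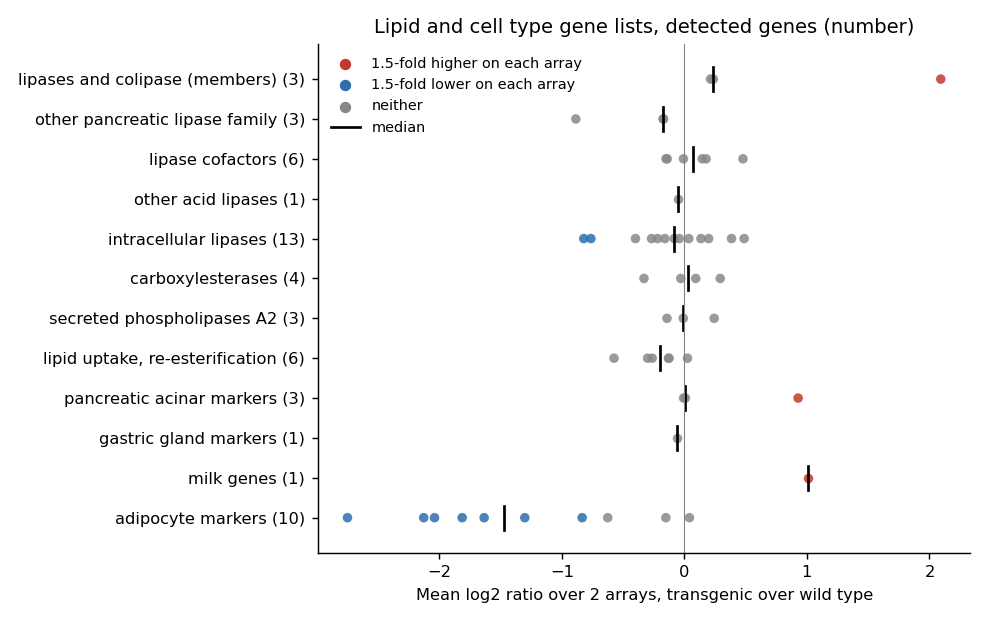
Mean log2 ratio of transgenic over wild type over both arrays for each detected gene of the lipase, lipid and cell type lists, with the number of genes in brackets, black bars at the median and colours for genes at least 1.5-fold higher (red) or lower (blue) on each array. Among the lists shown, the higher genes are Pnliprp1, Ctrb1 and Lalba, and the lower genes are Hilpda, Abhd12 and 7 adipocyte markers.

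The 5 nearest protein-coding genes on either side of the pancreatic lipase cluster, 10 in all, were listed. Of these, 9 were on the array and 3 were detected, beside 10435 detected of 18952 named genes. None of these 3 met the size rule, which 2.21% of all detected genes met. The pseudouridine synthase gene Trub1 was at −0.12 ± 0.15, Atrnl1, an attractin-like gene, at −0.05 ± 0.46, and Shtn1, the shootin gene, at 0.16 ± 0.38. The nearest neighbours, Ccdc172 and 1700019N19Rik, were not detected.

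The genes whose pattern was most like that of Pnliprp1 were found by the Euclidean distance over 4 normalized log2 levels, of each pool on each array, among 6051 genes well above background in both pools on both arrays. The distance includes probe brightness, which depends on the probe as well as on the transcript. The nearest were Asns, the asparagine synthetase gene, at a distance of 0.80 and a log2 ratio of 1.39 ± 0.82, and the predicted gene Gm12830 at a distance of 0.96 and a ratio of 1.51 ± 0.09. Syn1 (0.86 ± 0.16), Preb (1.07 ± 0.59), Plac8 (1.06 ± 0.69) and Hnrnpa3 (0.85 ± 0.38) followed at distances of 1.37 to 1.44. Each had a lower mean ratio than Pnliprp1, which was picked for its higher ratio. Asns, Gm12830, Syn1 and Preb, 4 of the 6, met the size rule. None of these 4 met it with median centring, where Syn1 turned to −0.14, and the call of Preb was also lost by the scanner's ratios and in the authors' deposited table. The other 3 detected probes of Hnrnpa3 were at 0.42, 0.07 and −0.22, so its own pattern differed between probes. Further probes of Gm12830, Syn1 and Preb were not detected, with mean log2 intensities of 6.02 to 6.41. The probes used for these genes were at 11.35 to 11.94, so their patterns each rest on a single probe.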

How the data were processed

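Total RNA of 2 pools was measured on 2 dye-swapped Agilent arrays. Per the file headers, the deposited scanner files were made with Feature Extraction 11.0.1.1 and hold spot and background intensities, intensities background-subtracted and dye-normalized by the scanner software, and log10 ratios of Cy5 over Cy3 with their errors. The authors' deposited value table holds log2 values. Against the scanner's ratio of transgenic over wild type it had r and slope of 1 and a median of 0 on each array, which settles its scale, centring and direction. How its rows were filtered is not stated in the headers or labels.

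Median spot signals were corrected by normexp (offset 50) and normalized by loess within arrays, with control and outlier spots at weight 0, in limma 3.58.1 and R 4.3.3. No spot was saturated. Probes were named through RefSeq accessions (GRCm38.p6): 27816 of 41174 probes matched. The array annotation cites another build, so coordinates are given only for the RefSeq sequences. A gene took its brightest detected probe. The steps were tested on simulated data with noise at the median SD of all repeat spots, 0.17 and 0.23 on arrays 1 and 2. Repeat spots near the brightness of Pnliprp1 had median SDs of 0.26 and 0.72, so the simulation does not cover that noise. No p-values were computed. The labels describe the arrays as technical replicates, whose number limits the precision.

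Members and gene lists were chosen with earlier results of these data known. Named genes were all members, and from each list those past the size rule, up to 4 with the largest absolute ratio and up to 4 of the brightest, of which not all are printed, and the 6 genes most like Pnliprp1. Genes named as not detected, and the neighbours on chromosome 19, were chosen after the values were seen.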

Additional observations from a re-analysis of the deposited data

How the results depend on the processing

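The mean ratio of Pnliprp1 moved by less than its SD over the arrays, and its call held, under no background subtraction, an offset of 16, scaling between arrays, the scanner software's log ratios, the authors' deposited table, the mean over probes, both changes of the detection rule and a 2-fold rule. It ranged from 1.89 to 2.30 with 1 array left out. With median centring it was 1.11, with Cel at −0.094 and 0 members called. With the scanner software's log ratios, Clps was at 0.72 and 2 members were called. With no dye normalization, added after the data were seen, Pnliprp1, Clps and Cel were at 0.76, −0.58 and −0.81, and the signs of Ctrb1 (−0.30), Lalba (−0.25), Syn1 (−0.52) and Preb (−0.30) turned. That of Syn1 also turned with median centring (−0.14), and that of Abhd12 in the scanner's ratios (0.030) and the deposited table (0.017). The cause was not tested. Clps ranged from 0.08 to 0.39 and Cel from 0.12 to 0.31 with 1 array left out.

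The counts of all genes, 95 higher and 136 lower, were 149 and 239 with an offset of 16, 2 and 554 with median centring, 247 and 627 with the scanner's ratios, and 25 and 37 at 2-fold. They were 544 to 845 higher and 558 to 1569 lower with 1 array left out, where 1 array has to pass. The deposited table gave 178 higher, and probes well above background in both pools 76 lower. With array 2 left unturned, 318 genes followed the dye, 282 of them brighter in Cy3. The genes called by genotype in either direction numbered 231, fewer than those following the dye. Over the other named genes and list medians, 1196 of the recomputed values stayed within the SD over the arrays, 333 moved further and 7 changed sign from a call. The transgenic pool in Cy5 on array 2, the weakest channel, was not well above background for Clps, Cel and Pnliprp2. Pnlip, Lipf and Lipg were not well above background in any channel. No paired analysis was possible because both arrays hold the same pair of pools.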

Other observations

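Lists of other cell types that did not enter the comparison of lipases gave the following values. Among all detected genes, 1.3% were called lower and the median log2 ratio was −0.06. Of 8 detected macrophage and myeloid markers, all 8 means were below 0 and the median log2 ratio was −0.61. C1qa, C1qb, Mrc1, Adgre1, Lyz2 and Cd14 met the detection rule through wild-type RNA only. Counting any probe, 9 and 2 myeloid genes stood clear of background in transgenic RNA on arrays 1 and 2. In wild-type RNA the counts were 8 and 9. Genes admitted by the wild-type pool alone can lean lower by selection, and the part of this selection in the median was not tested. Of the 8 markers, 2 were called lower (C1qc and Mrc1). Neither call remained after scaling between arrays; that of C1qc was also lost by the scanner's ratios and in the authors' deposited table, that of Mrc1 when no background was subtracted, and both at 2-fold. None of 4 basal epithelial markers (median −0.10) and none of 10 smooth muscle and fibroblast markers (median −0.29, with 0.40 on array 1 and −0.99 on array 2) met the size rule. Of the 10 luminal markers, Hoxb13 was lower at −0.69 ± 0.03 and the median was −0.01. Of the 8 detected secretory genes, Spink1, Sbp and Msmb were lower and the median was −0.17. Spink1 and Sbp kept their calls in 12 of 12 other settings, the one with no dye normalization not counted. Msmb kept its call in 7 of 12 and lost it when no background was subtracted, after scaling between arrays, by the scanner's ratios, in the authors' deposited table and at 2-fold.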
